A study of Mus musculus with 66 samples.

Results

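The genes described here encode the proteasome, the barrel-shaped protease that degrades ubiquitin-tagged proteins. They were taken from the mRNA-Seq table of the series as every gene whose symbol starts with Psma, Psmb, Psmc or Psmd followed by a digit, without pseudogene symbols. This gave 40 of 22489 genes, of which 39 encode a subunit or a 19S assembly chaperone. The remaining gene, Psmc3ip, shares the start of its symbol but encodes a cofactor of meiotic recombination and is no subunit, so it was kept in the counts of the 40 genes and described apart. The series characterised mouse histone H3 variants in C2C12 cells, a mouse myoblast line that forms muscle cells when serum is withdrawn. The mRNA-Seq part held 20 libraries, namely C2C12 cells without a transgene (WT) and 9 Tet-On lines that carry N-terminally GFP-tagged H3mm7, H3mm11, H3mm12, H3mm13, H3mm16, H3t, H3.3, H3.2 or H3.1 behind a doxycycline-inducible promoter. Each line gave 1 library from growing cells in 20% fetal bovine serum and 1 library from cells kept for 48 h in 2% horse serum after confluence, called differentiated here. The lines were made by transfection, drug selection and sorting of GFP-positive cells, and the study's methods also call them stable clones. H3.1, H3.2 and H3t carry an H3.1/H3.2-type protein and the other 6 lines an H3.3-type protein. Because each line had 1 library per state, the lines served as replicates, and the p-values below measure the spread between lines.

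A proteasome is made of a 20S core and a 19S cap. The core stacks outer rings of α subunits (Psma genes), which gate the entrance, on inner rings of β subunits (Psmb genes), 3 of which carry the cutting sites. The 19S base holds a ring of ATPases (Psmc genes) that unfold substrates, and its lid holds the deubiquitinase Psmd14, which removes ubiquitin before a substrate enters. In muscle, the system is known for the breakdown of myofibrillar proteins, and in all cells its subunits are needed in matched amounts. Of the 40 genes, 7 encode α subunits, 4 encode β subunits without a cutting site, 3 encode the constitutive cutting subunits and 3 their immunoproteasome counterparts. Another 2 are core subunits of restricted tissues, 6 are ATPases, 3 are other base subunits, 8 are lid subunits and 3 are assembly chaperones of the 19S base.

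Labels and states were checked with marker genes. Desmin (Des) was at 165 to 497 FPKM in growth and 378 to 1273 FPKM in differentiated cells. The muscle transcription factor Myog was at 0.106 to 23.1 FPKM in growth and 329 to 1151 FPKM after differentiation, and Pttg1, an anaphase inhibitor of dividing cells, was at 142 to 212 FPKM and had a median of 5.31 FPKM after differentiation. Of the markers of other cell types, Ptprc was listed at 0 in 16 of 20 libraries, and Epcam and Alb in 19 each. Cdh5 reached 7.53 FPKM in growth and 1.90 FPKM after differentiation, and Cd68 reached 2.00 and 3.90 FPKM. FPKM counts fragments relative to the exon length of a gene and the depth of a library. The depth itself is unknown, and values therefore carry no counting error here.

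In these cells, 36 of the 40 genes had a mean of at least 1 FPKM over the 20 libraries and were tested. They are 35 subunits or assembly chaperones and Psmc3ip. The levels of the core subunits lay close together in the GFP-H3 lines. Over the 14 standard core subunits, the highest gene was 2.50 to 3.93 times the lowest in the 9 growth libraries, with Psma1 at the bottom and Psmb3 at the top in each of them. After differentiation this ratio was 3.24 to 6.48, and it was larger than in growth in 9 of 9 lines, again with Psma1 lowest and Psmb3 highest. For the 17 subunits of the 19S cap, the ratio was 2.03 to 3.68 in growth and 5.31 to 7.85 after differentiation. Psmb3, a β subunit without a cutting site, had the highest mean of all members at 377 FPKM. Among the tested subunits the lowest mean was that of Psmb10 at 11.3 FPKM, and Psmc3ip was at 10.7 FPKM. The assembly chaperones Psmd5, Psmd9 and Psmd10, which leave before the particle is finished, had means of 46.2, 13.8 and 28.2 FPKM, below every tested core or cap subunit except Psmb10.

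**Figure D1:**
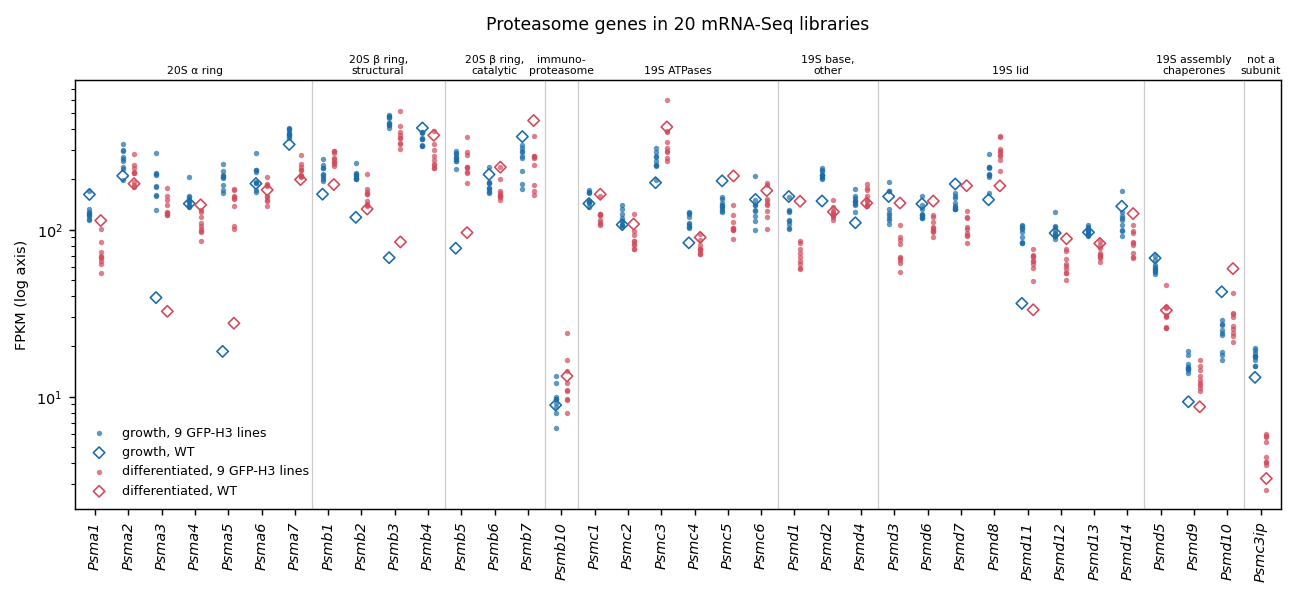
FPKM (log axis) of the 36 tested genes in each of the 20 libraries, with growth in blue and differentiated cells in red, 1 filled circle per GFP-H3 line and an open diamond for WT. Most core and cap subunits lie in a narrow band, Psmb10, the assembly chaperones and Psmc3ip lie below it, and WT lies far below the lines for Psma3, Psma5, Psmb3, Psmb5 and Psmd11.

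Transcripts of the constitutive cutting subunits were higher than those of their immunoproteasome counterparts. Psmb5, Psmb6 and Psmb7 carry the chymotrypsin-like, caspase-like and trypsin-like sites and are replaced by Psmb8, Psmb9 and Psmb10 in the immunoproteasome, a form induced by interferon. Psmb5 was at 77.5 (lowest), 267 (median) and 295 FPKM (highest) in growth. Psmb6 was at 165, 184 and 238 FPKM, and Psmb7 at 176, 284 and 361 FPKM. These 3 genes were thus among the subunits of high level, with the lowest Psmb5 value in WT. Psmb10 was at 6.49, 9.40 and 13.2 FPKM in growth and 7.96, 11.5 and 24.1 FPKM after differentiation. In each library Psmb7 was higher than Psmb10, by 7.70 to 40.5 times with a median of 27.7. The smallest of these ratios was that of the differentiated H3mm7 library, which had the highest Psmb10 value.

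Psmb8 and Psmb9 were hardly detected. Psmb8 was listed at 0 in 12 of 20 libraries and above 0 in 8, with 0.0209 FPKM in H3mm7 and 0.0260 FPKM in H3mm16 in growth, and 0.0223 FPKM in WT, 0.0227 in H3.1, 0.0206 in H3t, 0.0199 in H3.3, 0.121 in H3mm7 and 0.0693 in H3mm12 after differentiation. Psmb9 was listed at 0 in 13 libraries. Its values above 0 were 0.0324 FPKM in H3t, 0.101 FPKM in H3mm7 and 0.259 FPKM in H3mm11 in growth, and 0.0729 FPKM in H3.1, 0.0328 FPKM in H3t, 0.0792 FPKM in H3mm7 and 0.0519 FPKM in H3mm16 after differentiation. Psma8, which takes the place of Psma7 in testis, was listed at 0 in 16 libraries and at 0.0154 to 0.0291 FPKM in the others, which were H3.1 and H3t in growth and H3.2 and H3.3 after differentiation. Psmb11, the cutting subunit of thymic epithelium, was listed at 0 in both WT libraries and at 0.0491 to 0.180 FPKM in the 18 GFP-H3 libraries. Read numbers being unknown, values this low cannot be told from absence, and none of these 4 genes was tested.

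The first comparison asks how proteasome genes change when myoblasts differentiate (10 differentiated against 10 growth libraries). Most subunit genes that changed fell, and by modest amounts. Of the 35 subunits and assembly chaperones, 21 fell and 3 rose, while 11 did not pass the test (limma on log2(FPKM + 1), Benjamini-Hochberg adjusted p below 0.05 over 10954 genes). With Psmc3ip, the counts over the 36 tested genes were 22 lower and 3 higher. Over all genes tested, 28.1% were called lower and 30.5% higher. The median difference of the 35 genes was -0.34 on the log2 scale, against 0.04 over all genes tested. A fall of at least 1 on the log2 scale was reached by 8.41% of all genes tested and by 0 of the 35 genes, and the corresponding rise by 8.87% of all genes and again by none of the 35. In bulk RNA, a fall in a subset of cells and a lower level per cell cannot be told apart, nor can a change of state and the change from fetal bovine to horse serum. Cell cycle markers fell and muscle markers rose in the same libraries by the amounts given above, and their part in these differences was not tested. With the line as a block, since both libraries of a line come from the same cells, 26 of the 36 genes were lower and 5 higher, against 33.3% lower and 37% higher of all genes tested. The additional calls were falls of Psma3, Psma5, Psmb3 and Psmd9 and rises of Psmb10 and Psmd10, with limma adjusted p of 0.00019, 0.0073, 0.030, 0.0025, 0.027 and 0.00084.

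**Figure D2:**
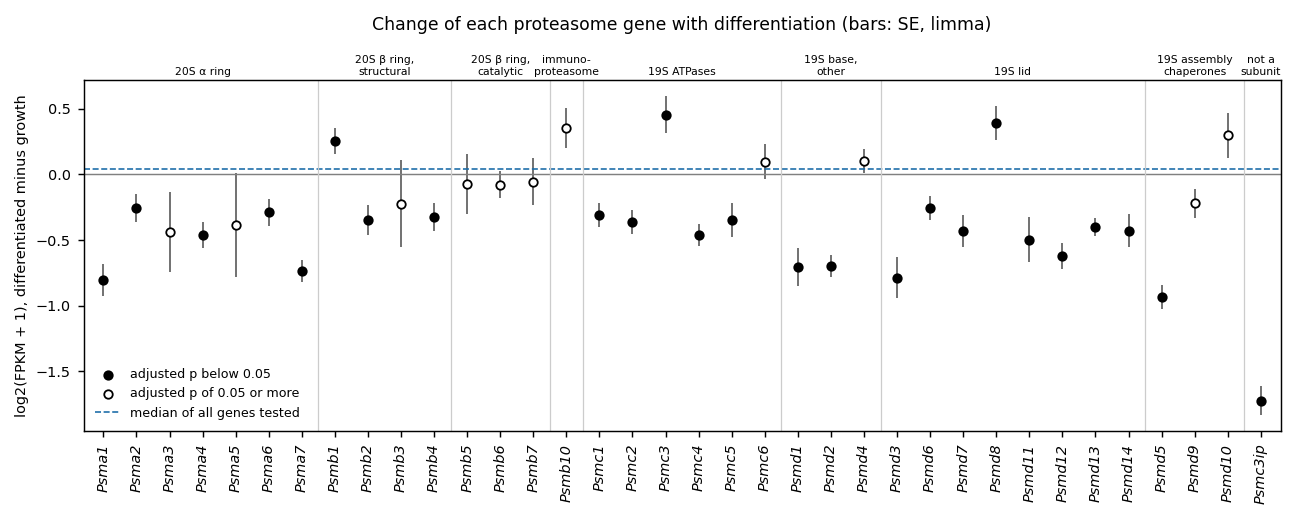
Difference of log2(FPKM + 1) between differentiated and growth libraries for the 36 tested genes (10 libraries each), with bars for the standard error from limma, filled circles for adjusted p below 0.05 and a dashed line at the median of all genes tested. Of the 8 lid genes 7 lie below 0 and passed the test, the 3 cutting subunits lie near 0, and Psmb1, Psmc3 and Psmd8 are the genes that rose.

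In the outer ring of the core, 5 of 7 α subunits fell and none rose. Psma1 (mm9 chromosome 7, 121408120 to 121419632, minus strand) fell most. It was at 114, 125 and 170 FPKM (lowest, median, highest) in growth and 54.9, 69.2 and 114 FPKM after differentiation, so that the groups did not overlap. It was lower after differentiation in 10 of 10 lines, with a log2 difference of -0.81 (SE 0.12, limma adjusted p = 7.4e-06), which is 1.75-fold on this scale. Psma7 was at 324, 373 and 407 FPKM in growth and 200, 220 and 281 FPKM after differentiation, again without overlap (log2 difference -0.73, SE 0.083, limma adjusted p = 1.5e-07). Psma4 and Psma6 fell by 0.46 and 0.29 on the log2 scale, and Psma6 lost its call in 2 of the 21 other settings (limma adjusted p up to 0.060). Psma2 fell by 0.25, close to the threshold (limma adjusted p = 0.049), and with 9 of the 21 other settings it did not pass. Psma3 and Psma5 had differences of -0.44 and -0.38 but large errors (SE 0.30 and 0.40), and did not pass the test. Both were far lower in WT than in the lines, as described below. Without WT they were called lower (limma adjusted p = 0.0041 and 0.0013). In that fit 26 of the 36 genes were lower and 3 higher, against 29.6% and 32.1% of all genes tested.

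The inner ring went several ways. Of the 4 β subunits without a cutting site, Psmb2 fell by 0.35 and Psmb4 fell by 0.32 on the log2 scale, and Psmb1 rose. Psmb1 was at 163, 215 and 266 FPKM in growth and 186, 260 and 294 FPKM after differentiation. The groups overlapped, but the gene was higher after differentiation in 10 of 10 lines (log2 difference 0.25, SE 0.10, limma adjusted p = 0.036). This call is weak, since it was lost with quantile normalization (limma adjusted p = 0.066) and without any of the lines H3.1, H3.2, H3.3, H3mm7, H3mm11, H3mm12, H3mm13 or H3mm16 (limma adjusted p from 0.054 to 0.077). Psmb3 had a difference of -0.22 and did not pass the test, but did without WT (limma adjusted p = 0.013). For the cutting subunits no difference was detected. After differentiation Psmb5 was at 96.1, 236 and 358 FPKM, Psmb6 at 151, 164 and 238 FPKM, and Psmb7 at 161, 271 and 451 FPKM. The growth and differentiated values of each overlapped widely. The log2 differences of Psmb5, Psmb6 and Psmb7 were -0.07 (SE 0.23), -0.08 (SE 0.10) and -0.05 (SE 0.18), and their limma adjusted p lay between 0.55 and 0.81. The line as a block or leaving out any single line did not bring a call for any of them. Psmb10 had a log2 difference of 0.35 (SE 0.15) at a limma adjusted p of 0.051, passed in 9 of the 21 other settings, and was higher after differentiation in 7 of 10 lines.

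In the 19S base, 4 of the 6 ATPases fell, 1 rose and Psmc6 was not called. The falls of Psmc1, Psmc2, Psmc4 and Psmc5 were -0.31, -0.36, -0.46 and -0.34 on the log2 scale. Of these, Psmc5 lost its call in 8 of the 21 other settings (limma adjusted p up to 0.10). Psmc1 lost its call without H3.3, H3mm7 and H3mm11 (limma adjusted p = 0.11). The sixth ATPase, Psmc3, went the other way and rose most of all subunits. The gene lies on chromosome 2 of mm9 (90894166 to 90906526, plus strand). It was at 191, 252 and 310 FPKM in growth and 259, 320 and 599 FPKM after differentiation, with the highest value in H3mm12, and it was higher in 8 of 10 lines (log2 difference 0.45, SE 0.14, limma adjusted p = 0.0081). In H3.3 and H3mm7 it was lower after differentiation, with 293 and then 259 FPKM, and 310 and then 270 FPKM. Psmd1 and Psmd2, the large scaffold subunits of the base, fell by 0.71 and 0.70. The ubiquitin receptor Psmd4 had a difference of 0.10 (SE 0.090) and was not called.

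In the lid, 7 of 8 genes fell and 1 rose. Psmd3 was at 108, 129 and 192 FPKM in growth and 55.7, 75.3 and 145 FPKM after differentiation (log2 difference -0.79, SE 0.15, limma adjusted p = 0.00017). Its differentiated values were highest in WT (145 FPKM) and H3mm7 (107 FPKM), and only that of WT lay within the growth range. Psmd12, Psmd11, Psmd7, Psmd13 and Psmd6 fell by 0.62, 0.50, 0.43, 0.40 and 0.25. Of these, Psmd11 lost its call without H3.3, H3mm7 and H3mm11 (limma adjusted p = 0.073). Psmd6 lost its call in 2 of the 21 other settings (limma adjusted p up to 0.15). Psmd13 was at 92.3, 97.1 and 107 FPKM in growth and 64.5, 71.9 and 85.5 FPKM after differentiation, without overlap. The deubiquitinase Psmd14 was at 91.7, 116 and 170 FPKM in growth and 67.7, 84.0 and 125 FPKM after differentiation. It was lower in 10 of 10 lines (log2 difference -0.43, SE 0.12, limma adjusted p = 0.0056). The exception was Psmd8, which rose from 151, 215 and 286 FPKM to 183, 286 and 366 FPKM. It was higher in 10 of 10 lines (log2 difference 0.39, SE 0.13, limma adjusted p = 0.014), with the lowest value of either state in WT. Without H3.3, H3mm7 and H3mm11 its limma adjusted p was 0.051.

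The 3 assembly chaperones of the base differed from each other. Psmd5, one of the chaperones that hold the ATPases during assembly of the base, had the largest fall of all 35 genes. It lies on chromosome 2 of mm9 (34707608 to 34726459, minus strand). It was at 54.3, 59.0 and 70.0 FPKM in growth and 25.8, 30.7 and 46.4 FPKM after differentiation, and the groups did not overlap (log2 difference -0.93, SE 0.094, limma adjusted p = 2.5e-08, 1.91-fold). The highest differentiated value was again that of H3mm7. Psmd9 was at 9.34, 14.9 and 18.7 FPKM and then 8.72, 12.3 and 16.5 FPKM. It was lower in 10 of 10 lines but did not pass the test (log2 difference -0.22, SE 0.11, limma adjusted p = 0.096), but did without WT (log2 difference -0.23, limma adjusted p = 0.022). Psmd10 was at 16.7, 24.5 and 42.5 FPKM and then 21.2, 28.3 and 58.5 FPKM, and was higher in 10 of 10 lines without passing the test (log2 difference 0.30, SE 0.17, limma adjusted p = 0.15). For both, the spread between lines was as large as the change within a line, and with the line as a block they passed, as stated above.

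Over the 35 genes, all 10 growth libraries lay above all 10 differentiated libraries for Psma1, Psma7, Psmd5 and Psmd13, against 8.74% of all genes tested. The opposite order was found for none of the 35 genes and for 8.85% of all genes tested. Psmc3ip, the gene that is no subunit, had the largest change of the 36. It was at 13.1, 17.4 and 19.6 FPKM in growth and 2.78 (lowest), 4.2 (median) and 5.94 FPKM (highest) after differentiation (log2 difference -1.72, SE 0.11, limma adjusted p = 2.4e-11).

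Within lines, the direction was shared by the 9 GFP-H3 lines but not by WT. The median change of the 35 genes was -0.42 in H3.1, -0.37 in H3.2, -0.47 in H3t, -0.22 in H3.3, -0.22 in H3mm7, -0.53 in H3mm11, -0.15 in H3mm12, -0.44 in H3mm13 and -0.40 in H3mm16 on the log2 scale. In these lines 24 to 30 of the 35 genes were lower after differentiation. In WT the median change was 0.01, with 17 genes lower and 18 higher. Its sign depended on the scaling of the libraries, since it was -0.01 with upper-quartile scaling and -0.12 with quantile normalization, under which the 9 lines were at -0.48 to -0.32. The median change of all genes tested was 0.03 in WT and -0.01 to 0.06 in the lines. The median level of the 14 standard core subunits was 163 FPKM in growing and 157 FPKM in differentiated WT cells, against 189 to 276 FPKM and 163 to 225 FPKM in the lines. For the 17 cap subunits it was 143 and 145 FPKM in WT, against 118 to 156 FPKM and 90.1 to 120 FPKM in the lines. WT had 1 library in each state, so its difference from the lines has no replicate check.

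**Figure D3:**
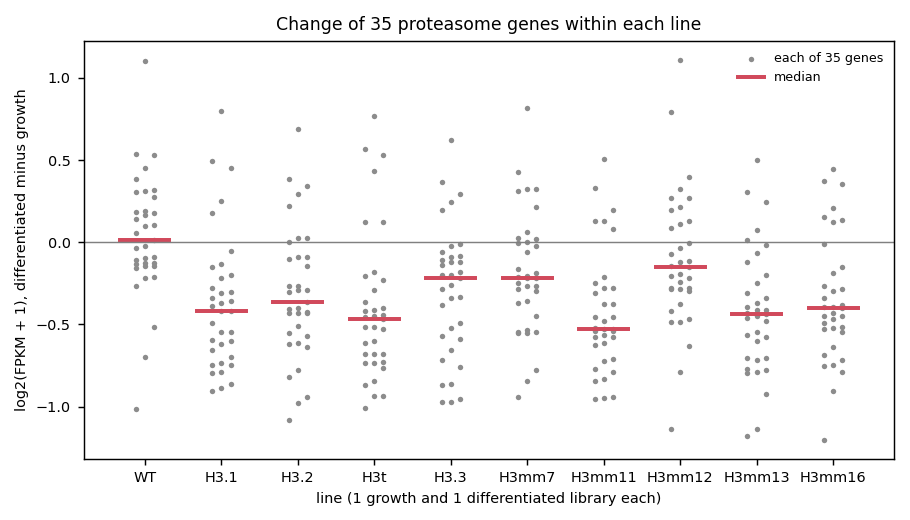
Change of log2(FPKM + 1) from growth to differentiation for each of the 35 tested subunit and assembly chaperone genes (grey) within each line, with the median in red. The medians of the 9 GFP-H3 lines lie between -0.53 and -0.15, and that of WT is at 0.01.

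The second comparison asks whether the type of the GFP-H3 protein goes with proteasome expression (the 3 lines with an H3.1/H3.2-type protein and the 6 with an H3.3-type protein). In growth, 0 of the 36 genes were called in either direction, against 0.246% of all genes tested, and 0 had an unadjusted p below 0.05 (limma). The smallest adjusted p was that of Psmc2 (log2 difference -0.22, SE 0.13, limma adjusted p = 0.63). The differences of the 36 genes lay between -0.27 and 0.23. In differentiated cells, 0 were called, against 2.46% of all genes tested, and 3 had an unadjusted p below 0.05. These were Psmd7, Psmb5 and Psmd4, higher in the H3.3-type lines by 0.31 (SE 0.12), 0.31 (SE 0.14) and 0.24 (SE 0.11) with limma adjusted p of 0.16, 0.22 and 0.23. For the interaction of type and state, 0 of the 36 genes were called by limma, as were 0% of all genes tested, and 0 had an unadjusted p below 0.05. No difference between the types was thus detected for any of the 36 genes.

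Differentiated H3.3, H3mm7 and H3mm11 lines were grouped together in the study on the expression in these libraries, so they are only described. All 3 lay above the other 6 lines for 0 of the 35 genes, against 10.3% of all genes tested, and below them for 0 genes, against 8.84%. In growth they lay above the others for Psmb5 alone, which was at 283, 288 and 295 FPKM in H3.3, H3mm7 and H3mm11 and at most 273 FPKM in the others, and below them for 0 genes. Over all genes tested, 2.32% lay above and 0.959% below in growth. Without these 3 lines, 16 of the 36 genes were called lower and 2 higher between the states, against 26.5% and 28.9% of all genes tested.

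Single lines differed for some subunits in both states. Psmb7 was at 176 FPKM in H3.1, 187 in H3.3 and 223 in H3mm7 in growth, and at 270 to 321 FPKM in the other 6 lines. After differentiation the same 3 lines were at 161, 172 and 186 FPKM and the other 6 at 244 to 365 FPKM. For Psmd3 the order was the opposite. In growth H3.1, H3.3 and H3mm7 were at 170, 171 and 192 FPKM and the other 6 lines at 108 to 133 FPKM, and after differentiation they were at 90.1, 86.4 and 107 FPKM against 55.7 to 81.9 FPKM. These lines were singled out after their values were seen and carry proteins of both types. The share of all genes tested that set these 3 lines apart was not counted. As a description of how the subunits moved together, Pearson's r between 2 of the 35 genes over the 9 GFP-H3 lines had a median of 0.17 over 595 pairs in growth and 0.40 after differentiation, against 0.01 and 0.00 over all pairs of tested genes. Among the 14 standard core subunits it was 0.35 and 0.52 (91 pairs), and among the 17 cap subunits 0.16 and 0.36 (136 pairs). With WT as a further point, the values after differentiation were 0.28 for the 35 genes, 0.33 for the core and 0.39 for the cap. The points of each correlation share their libraries.

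WT stood apart from the lines for several subunits. Of the 35 genes, 14 lay below all 9 lines in growth and 6 above, against 22.5% and 25.9% of all genes tested. After differentiation 10 lay below and 12 above, against 17.5% and 22.5%. Some of the gaps were large. Psma5 was at 18.7 FPKM in growing WT cells and 166 to 248 FPKM in the lines, with a median of 206 FPKM. Psmb3 was at 68.0 FPKM in WT and 405 to 488 FPKM in the lines. Psma3 was at 39.2 FPKM against 131 to 286 FPKM, Psmb5 at 77.5 against 230 to 295 FPKM, and Psmd11 at 36.2 against 83.5 to 107 FPKM. These 5 genes were also lowest in WT after differentiation, at 27.6, 84.5, 32.5, 96.1 and 33.2 FPKM in the same order. In the other direction, Psmd10 was at 42.5 FPKM in growing WT cells and 16.7 to 28.7 FPKM in the lines, and at 58.5 against 21.2 to 41.9 FPKM after differentiation.

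Sequence shared with other places of the genome was measured because genes with processed copies elsewhere in the genome share reads with them. For each gene, the longest annotated transcript was cut into 31-base words, and the share of words that occur at more than 1 place of the mm9 genome was counted. Psmb3, Psmb5, Psma5, Psma3 and Psmd11 had 77.0%, 72.8%, 59.1%, 35.7% and 23.5% of their words at more than 1 place. Psma4, Psmc1 and Psmd2 had 48.5%, 37.4% and 36.4%, and were at 0.963, 0.961 and 0.699 times the median of the lines in growing WT cells, where Psmd2 was below all 9 lines. Psmb7, with 21.8%, was at 361 FPKM in WT and 176 to 321 FPKM in the lines. Genes with few shared words also differed in WT. Psmb2, Psmc4, Psmd8 and Psmd9 had 0%, 0%, 2.29% and 5.06%. In growing WT cells they were at 0.565, 0.757, 0.699 and 0.624 times the median of the lines, below all 9 lines. Psmd10, with 0%, was at 1.78 times the median, above all 9 lines. Whether the reads of WT were treated differently was not tested. Among genes that work with the proteasome, the ubiquitin gene Rps27a was at 10.4 FPKM in growing WT cells, with a median of 1328 FPKM over the 10 growth libraries.

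**Figure D4:**
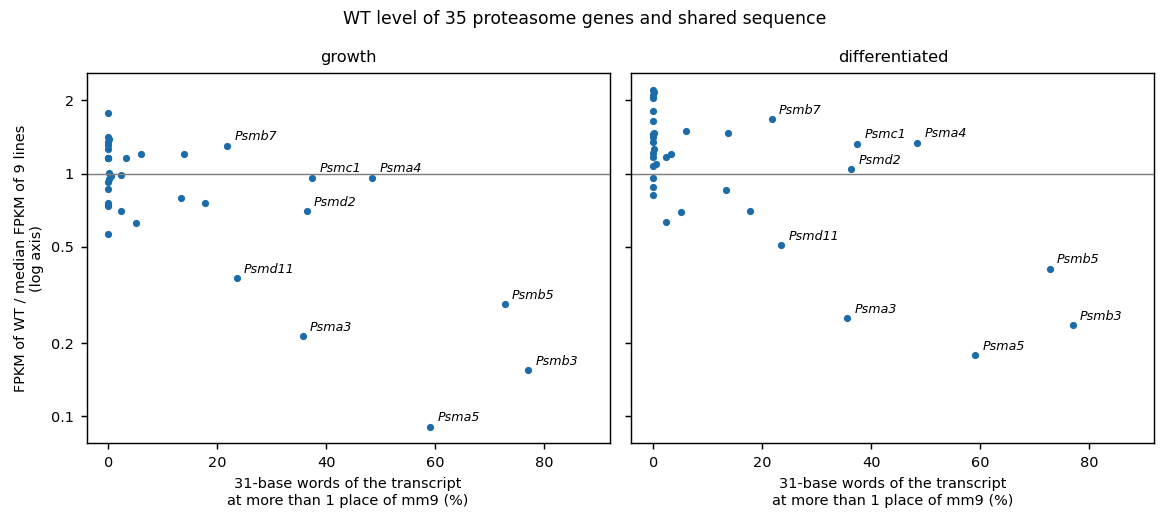
FPKM of WT divided by the median of the 9 GFP-H3 lines (log axis) for 35 genes against the percentage of 31-base words of the longest transcript found at more than 1 place of mm9, in growth (left) and after differentiation (right). The lowest ratios belong to Psma5, Psmb3, Psma3, Psmb5 and Psmd11, which have 23.5% to 77.0% of shared words, while Psma4, Psmc1, Psmd2 and Psmb7 have like shares and ratios from 0.699 up in growth.

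Of 4 genes that regulate proteasome genes, 3 rose and 1 fell, against 30.5% higher and 28.1% lower of all genes tested. Nfe2l1 encodes a transcription factor that is known to raise subunit genes when proteasome activity falls. Its protein is held at the endoplasmic reticulum, and Ngly1 and Ddi2 are known to process it into the active form. Nfe2l1 was at 43.6, 59.3 and 74.2 FPKM (lowest, median, highest) in growth and 126, 223 and 233 FPKM after differentiation, without overlap and higher in 10 of 10 lines (log2 difference 1.73, SE 0.13, limma adjusted p = 2.4e-10). The lowest differentiated values were those of H3t (126 FPKM), H3.1 (127 FPKM) and H3mm7 (176 FPKM), while the other 7 libraries lay between 217 and 233 FPKM. Nfe2l2, a related factor of the oxidative stress response, was at 43.5, 56.0 and 60.9 FPKM and then 70.7, 82.5 and 99.0 FPKM (log2 difference 0.58, limma adjusted p = 2.9e-06). Ngly1 rose by 0.40. Ddi2 fell by 0.20 (limma adjusted p = 0.047), a call that was lost in 15 of the 21 other settings, the line as a block included (limma adjusted p up to 0.18).

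**Figure D5:**
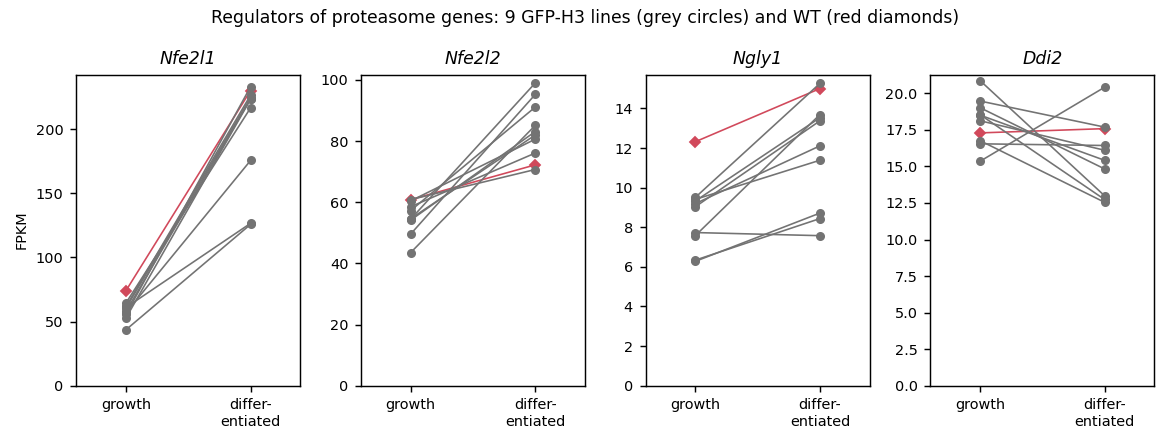
FPKM of Nfe2l1, Nfe2l2, Ngly1 and Ddi2 in growing and differentiated cells, with each line's libraries joined (grey circles for the 9 GFP-H3 lines, red diamonds for WT). Nfe2l1 rose from 43.6 to 74.2 FPKM in growth to 126 to 233 FPKM after differentiation, and Nfe2l2 and Ngly1 rose as well.

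Partner genes of the proteasome were called in part. The counts stand against 28.1% lower and 30.5% higher of all genes tested, or 33.3% and 37% with the line as a block. Of the 5 chaperones that assemble the core, Psmg1 fell by 0.73 on the log2 scale (limma adjusted p = 1.0e-05), and Psmg2, Psmg3, Psmg4 and Pomp were not called. After differentiation Psmg2 was at 63.5 to 77.4 FPKM in H3.3, H3mm7 and H3mm11, against 42.3 to 54.0 FPKM in the other 6 lines. Psmg4 was at 95.1 to 139 FPKM against 45.3 to 75.8 FPKM. All 3 lines lay above the other 6 for 10.3% of all genes tested. Psmg1, Psmg3 and Pomp were not compared in this way, so these values do not stand for the list. Between H3.3-type and H3.1/H3.2-type lines after differentiation, Psmg1, Psmg2 and Psmg4 differed by 0.21, 0.33 and 0.52 on the log2 scale. Psmg3 and Pomp differed by -0.02 and -0.18, and none of the 5 was called. Of the activators and the inhibitor, which bind the core in place of the 19S cap, 1 of 5 was called. Psme3, the nuclear activator, fell by 0.36. Psme1 and Psme2, which cap immunoproteasomes, had differences of 0.38 and 0.36. They and Psme4 passed with the line as a block, so that 3 of the 5 were then higher and 1 lower. Psme1 and Psme2 also passed without WT (limma adjusted p = 0.011 for each). WT was far below the lines for Psme2, at 4.51 FPKM in growth against a median of 69.7 FPKM over the 10 growth libraries. Of 5 subunits and enzymes attached to the cap, 2 fell, both deubiquitinases that trim ubiquitin chains on the cap. Uchl5 fell by 1.13 (limma adjusted p = 6.5e-06) and Usp14 by 0.72 (limma adjusted p = 9.9e-05). With the line as a block the ubiquitin receptor Adrm1 was lower as well, by 0.51. Adrm1 was also called lower without WT (log2 difference -0.60, limma adjusted p = 4.4e-05). Of 7 genes for ubiquitin, its activation and the p97 segregase, Uba1, the main activating enzyme, fell by 0.40 and Nploc4, a p97 cofactor, fell by 0.29, and 0 rose. With the line as a block 3 were lower and 2 higher, the additional calls being Vcp, Ubb and Ufd1l. Vcp was also called lower without WT (limma adjusted p = 0.0043), while Ubb and Ufd1l were not called. Of 8 genes of the response to unfolded proteins in the endoplasmic reticulum, 6 rose, against 30.5% of all genes tested. The median difference over the list was 1.27. The 6 were Hspa5, Ddit3, Xbp1, Atf4, Herpud1 and Dnajb9. The study grouped H3.3, H3mm7 and H3mm11 in these same libraries by a component that it tied to higher expression of such genes. The values of these lines are therefore only described. After differentiation Hspa5 was at 3688, 2780 and 2330 FPKM in H3.3, H3mm7 and H3mm11, against 205 to 1687 FPKM in the other 6 lines. Ddit3 was at 535, 945 and 596 FPKM against 44.7 to 582 FPKM. Without these 3 lines 5 of the 8 were called higher, against 28.9% of all genes tested, and Hspa5 lost its call (limma adjusted p = 0.22). None of these 34 partner genes was called between the types of line or in the interaction (limma). Over all genes tested the shares were 0.246% in growth, 2.46% after differentiation and 0% in the interaction.

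The element TGACNNNGC, to which Nfe2l1 and its relatives bind, was searched on both strands of RefSeq promoter windows of GRCm38.p6, which run from 250 bases before to 50 bases after a gene's start. Of the 40 genes, 33 had a window, and Psma8, Psmb1, Psmb2, Psmb7, Psmc3, Psmd3 and Psmd7 had no entry. The element was found in 5 of the 33 (15.2%), against 14.0% of 27025 genes with a window and 17.2% of 8175 tested genes. Of the tested subunits and assembly chaperones with a window, Psmc3ip left out, it was found in 1 of 18 that fell, 0 of 1 that rose and 4 of 10 that were not called. It is a string of letters in this window, and nothing about binding was measured. The stretches that hold it are shown 5′ to 3′ on the strand of the gene, since they include 2 of the 3 cutting subunits, with the element in capitals (for Psmd12 and Psmc6 it lies on the opposite strand and is read backwards in complement).
Psmb5, chr14:54618008-54618068, minus strand: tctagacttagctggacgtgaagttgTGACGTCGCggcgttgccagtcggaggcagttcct
Psmb6, chr11:70525322-70525382, plus strand: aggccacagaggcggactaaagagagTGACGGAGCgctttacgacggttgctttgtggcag
Psmd9, chr5:123228133-123228193, plus strand: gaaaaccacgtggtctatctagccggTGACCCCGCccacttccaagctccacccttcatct
Psmc6, chr14:45329574-45329631, plus strand: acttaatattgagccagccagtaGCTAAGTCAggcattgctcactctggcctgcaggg
Psmd12, chr11:107479278-107479315, plus strand: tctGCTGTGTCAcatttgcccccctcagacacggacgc
The element begins 47 bases before the start of Psmb5, 9 bases before that of Psmb6 and 31 bases before that of Psmd9. In Psmc6 and Psmd12 it lies 227 and 247 bases before the start. Of these 5 genes, Psmd12 fell with differentiation and the other 4 did not pass the test.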

How the data were processed

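Total RNA of WT and 9 GFP-H3 lines of C2C12 cells was reverse-transcribed with an oligo dT primer, with 1 library per line and state. The deposited FPKM values were estimated by the authors with cuffdiff of Cufflinks 2.0.1 at default parameters, after mapping to mm9 with TopHat2 2.0.8. The submitters' processing notes list these tools for all 20 libraries, while the methods text names the mapping for the GFP-H3 lines only. Default handling of reads with several places can move values between subunit genes and their processed copies. The annotation is not given in the sources used here. The columns taken as H3t are headed H3mmT, which differs from the sample title, and results are also given without this line.

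Genes with a mean of at least 1 FPKM (10954 of 22489) were tested with limma 3.58.1 (R 4.3.3, trend and robust settings) on log2(FPKM + 1), so fold changes of low genes are understated. The groups were 10 growth and 10 differentiated libraries, and, over 18 GFP-H3 libraries, the lines grouped by the type of their H3 protein (6 and 3) within each state, with the interaction of type and state. Adjusted p is Benjamini-Hochberg over all tested genes, and called means below 0.05. Both libraries of a line come from the same cells. The correlation of their deviations from the state means was 0.27 to 0.88. Each growth library matched the differentiated library of its own line best, so the line was used as a block in an alternative. Other alternatives changed the pseudocount, the filter, the scaling, limma's settings and the lines. Scripts were tested on simulated data. Words of 31 bases were cut from GENCODE transcripts and placed on the mm9 sequence. Promoters came from RefSeq (GRCm38.p6).

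The members and lists were chosen with earlier results of these data known. Named were the 3 called members with the largest rise and fall, the cutting subunits, Psma8, Psmb11, the 19S assembly chaperones, Psmd14, the highest and lowest tested members and those listed at 0, and partner genes from fixed lists (Paaf1 was not matched, and 1 gene is not reported here). All other members are given by their differences. The 3′-seq tables list no such gene, and ChIP-seq was not used here. Python 3.11.15 with numpy 2.4.6 and pandas 2.3.3 did the other calculations, and figures were plotted with matplotlib 3.10.9.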

Additional observations from a re-analysis of the deposited data

Results flagged for a closer look

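For each of the 36 tested genes, the growth and the differentiated group of 10 libraries were searched for a library far from the others, as the gap from the highest or lowest library to its neighbour divided by the range of log2(FPKM + 1), above Dixon's limit for 10 values. Of 72 groups, 20 held such a library, and a WT library was the one apart in 17 of these 20. The nominal rate is about 1 in 20 groups, but the groups share the same 20 libraries. The search was not run over all genes tested. In growth, WT lay below all 9 lines for 22.5% of all genes tested and above them for 25.9%. After differentiation these shares were 17.5% and 22.5%. In growth WT was apart for Psma3 (0.606), Psma5 (0.843), Psmb2 (0.708), Psmb3 (0.905), Psmb5 (0.815), Psmc4 (0.480), Psmd2 (0.673), Psmd9 (0.566) and Psmd11 (0.767), where it was low, and for Psmc5 (0.513), where it was high. After differentiation it was apart for Psma3 (0.776), Psma5 (0.703), Psmb1 (0.560), Psmb3 (0.709), Psmb5 (0.517) and Psmd11 (0.477), where it was low, and for Psmd1 (0.593), where it was high. The growing H3t library was apart and high for Psma4 (0.629) and Psmd12 (0.536), and the differentiated H3mm7 library was high for Psmd5 (0.520). These calls rest on single libraries. Leaving out WT changed the calls of Psma3, Psma5, Psmb3 and Psmd9 between the states, as given above.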

How the results depend on the processing

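Of the 25 genes called between the states, 17 kept their call and direction under each of 21 alternatives and 8 lost the call under at least 1. Without WT 26 of the 36 genes were lower and 3 higher. With any single line left out, 18 to 26 were lower and 2 to 3 higher, with the fewest lower without H3mm11. With the line as a replicate block 26 were lower and 5 higher, and the calls of members it changed are given in the report. Requiring a log2 difference of at least 1 left 1 lower (Psmc3ip) and 0 higher. Between types of line and in the interaction, 0 genes were called by limma under each alternative run, leaving out each line included (0 to 0). Directions changed for values that were not called. Without H3.3, H3mm7 and H3mm11, Psmb7 was at 0.017, Psmg2 at -0.070, Psmg4 at -0.091, Rps27a at -0.015 and Hsp90b1 at -0.32, and with quantile normalization Rps27a was at -0.014. The median change of WT was -0.012 with upper-quartile scaling and -0.12 with quantile normalization. The cause of these changes was not tested. The alternatives without WT and with the block, without H3.3, H3mm7 and H3mm11, and for the medians of single lines were chosen after seeing the data. With 1 library per line and state and unknown read numbers, differences of a single line cannot be set against replicate error.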
